A study of Homo sapiens with 9 samples.

Results

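Replication-dependent histone genes encode the linker histone H1 and the core histones H2A, H2B, H3 and H4 that package newly copied DNA. They were followed in HCCLM3, an established human hepatocellular carcinoma line that the labels describe as highly metastatic, after treatment with the plant flavonol quercetin. Members were all genes of the table whose symbol is H1-1 to H1-6 or begins with H2AC, H2BC, H3C or H4C followed by a number, which gave 58 of 17492 genes. They comprised 6 H1, 14 H2A, 15 H2B, 12 H3 and 11 H4 genes, 48 on chromosome 6 (25997488 to 27900651) and 10 on chromosome 1 (149781306 to 149887965) in the authors' table. RNA-seq was available for 9 libraries in 3 groups of 3, namely cells given the vehicle DMSO (control), quercetin at 50 µM and quercetin at 100 µM, all from the 1 line and labelled wild type. How long the cells were treated is not stated there. The labels do not tie the replicates to separate cultures. The p-values therefore reflect the spread among these 9 libraries alone, and that spread may be technical.

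In dividing cells these genes are transcribed mainly in S phase, when DNA is copied. Their messenger RNAs usually end in a short stem-loop that the protein SLBP binds, in place of the poly(A) tail of other messenger RNAs. Some of the genes also give transcripts that run past the stem-loop to a poly(A) site, as cells that leave the cycle or differentiate are known to make. Per the labels' protocols, messenger RNA was purified on beads carrying oligo(dT), which retain RNA with a poly(A) tail, so the values below are levels of histone RNA that the beads retained and the total amount of histone RNA was not measured.

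Stem-loops were looked for in the GENCODE release 29 transcripts of all 58 members, and those of the 16 tested genes that hold one and of H2AC19, the copy of H2AC18, are shown because they mark where the usual histone message ends. Each is printed 5′ to 3′ as the DNA letters of the transcript, with the stem-loop of 16 letters in capitals and 5 flanking letters on either side in lower case. The H2A sites were the following.
H2AC6: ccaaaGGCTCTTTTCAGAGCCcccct
H2AC8: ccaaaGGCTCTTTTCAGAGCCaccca
H2AC11: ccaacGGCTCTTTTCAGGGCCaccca
H2AC13: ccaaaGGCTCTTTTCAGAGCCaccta
H2AC18: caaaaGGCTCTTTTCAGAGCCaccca
H2AC19: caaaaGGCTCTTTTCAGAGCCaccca
The H2B sites were the following.
H2BC4: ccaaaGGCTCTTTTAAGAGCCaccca
H2BC5: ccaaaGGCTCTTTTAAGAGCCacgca
H2BC8: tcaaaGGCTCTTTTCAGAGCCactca
H2BC15: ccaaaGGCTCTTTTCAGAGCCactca
H2BC21: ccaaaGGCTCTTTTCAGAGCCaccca
The H3 and H4 sites were the following.
H3C10: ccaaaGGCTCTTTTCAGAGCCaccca
H3C15: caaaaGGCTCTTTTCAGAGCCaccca
H4C5: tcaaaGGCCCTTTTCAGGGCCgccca
H4C8: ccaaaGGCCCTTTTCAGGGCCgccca
H4C14: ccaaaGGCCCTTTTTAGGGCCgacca
H4C15: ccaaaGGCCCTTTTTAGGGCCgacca
A stem-loop of the form GGC, any letter, CTTTT, any letter, AG, any letter, GCC was present in 26 members, spelled in 5 ways. In 32 members none was found, and 26 of the 58 members are annotated in that release only with transcripts of coding length, which stop before it. Among all 206694 transcripts searched, on the transcript strand, 58 held the pattern (0.0281%), from 40 gene names, of which 14 are no members. H2AC18 and H2AC19 carry the same site with the same flanks, as do H4C14 and H4C15.

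Library totals ran between 20061136 and 21599805 estimated counts, and the histone genes held between 0.0197% and 0.0574% of them. Control replicate 1 and 100 µM replicate 3 stood apart from the other libraries of their groups. A chi-square per gene between replicates was 27.6 and 27.4 for pairs with that control library, against 3.56 for the other control pair. It was 83.9 and 86.1 for pairs with 100 µM replicate 3, against 5.04 for the other 100 µM pair, and 4.24 to 4.75 at 50 µM. Where leaving out either library ended or gained a call at 100 µM over control, or moved a called fold by over 1.5 times, the value without it is given or the loss is named. Levels are normalised read counts (CPM, scaled by TMM) unless FPKM is named. Calls are from edgeR's quasi-likelihood F test adjusted by Benjamini-Hochberg across the 12832 genes tested, at an adjusted p under 0.05. Hepatocyte markers, 9 of 10 tested and none at 0 in every library, summed to 104.0 to 128.9 CPM in control, 248.2 to 267.9 CPM at 50 µM and 287.2 to 333.1 CPM at 100 µM. The leukocyte list, of which CD68 made at least 99.1% in every library while CD3E was at 0 in 7 of 9 libraries, summed to 138.5 to 199.0, 128.0 to 143.7 and 216.2 to 296.4 CPM in the same order of dose, and its part in the histone results was not tested.

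All 58 histone genes had a count in at least 1 library, but only 23 had enough counts to be tested, namely 1 H1, 6 H2A, 7 H2B, 4 H3 and 5 H4 genes. Of these, 18 lie on chromosome 6 and 5 on chromosome 1. The other 35 include H2AC19, described with its copy H2AC18 below. The remaining 34 had summed counts over the 9 libraries of 0.9 to 76.0, highest for H2BC18, and 19 untested genes stayed under 10. Together these 34 genes gave 42.4, 43.3 and 57.6 counts in the control libraries, 59.1, 49.2 and 47.0 at 50 µM and 95.9, 77.8 and 113.6 at 100 µM. All 3 of the 100 µM sums were above all others. H2AC17 passed the filter only through its 100 µM libraries, so its higher level there was needed for it to be tested. Outside 100 µM, H2AC11 reached 10 counts only in 50 µM replicate 1 and H4C5 only in 50 µM replicate 2. H4C12 did so only in control replicate 2. The testing of these genes therefore also depended on their 100 µM counts. In the fit of control and 50 µM alone 19 histone genes were tested. H2AC11 and H4C5 were called higher at 100 µM over control, a direction that the filter favoured for them. Of the 23, 17 had at least 10 counts in every control library.

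A few genes gave most of the signal. The 5 genes with the highest mean CPM over all libraries were H2BC12 (65.0 CPM), H1-2 (57.8), H2AC18 (34.2), H4C15 (26.3) and H2BC5 (25.5), and these 5 held 68.7% of the mean summed level of the 58. Per length, in FPKM, the order of the genes differed between doses. H2BC12 had 91.1 ± 12.2 FPKM in control, 65.8 ± 5.23 FPKM at 50 µM and 89.5 ± 2.94 FPKM at 100 µM (SD, n = 3 each). H1-2 had 47.8, 71.9 and 80.1 FPKM in control, 54.5, 47.3 and 56.6 FPKM at 50 µM and 98.0, 106.2 and 194.1 FPKM at 100 µM. H2BC12 was thus the higher of these in all 6 control and 50 µM libraries, with ranges that overlapped in control, and H1-2 was the higher in all 3 libraries at 100 µM. In control they were followed by H2AC19 and H2AC18, whose split is uncertain, and by H4C15 (26.1 ± 1.5 FPKM), H2AC6 (21.2 ± 4.36), H4C14 (16.3 ± 1.49), H2BC5 (15.8 ± 0.939) and H4C8 (8.12 ± 0.927; SD, n = 3 each). At 100 µM H2AC18 (124.8 ± 9.81 FPKM) stood near H1-2, and below H2BC12 came H2BC5 (61.1 ± 30.1), H4C8 (57.7 ± 50.1), H2AC6 (52.1 ± 21.0) and H4C15 (42.5 ± 8.57), which did not differ beyond their spread.

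**Figure D1:**
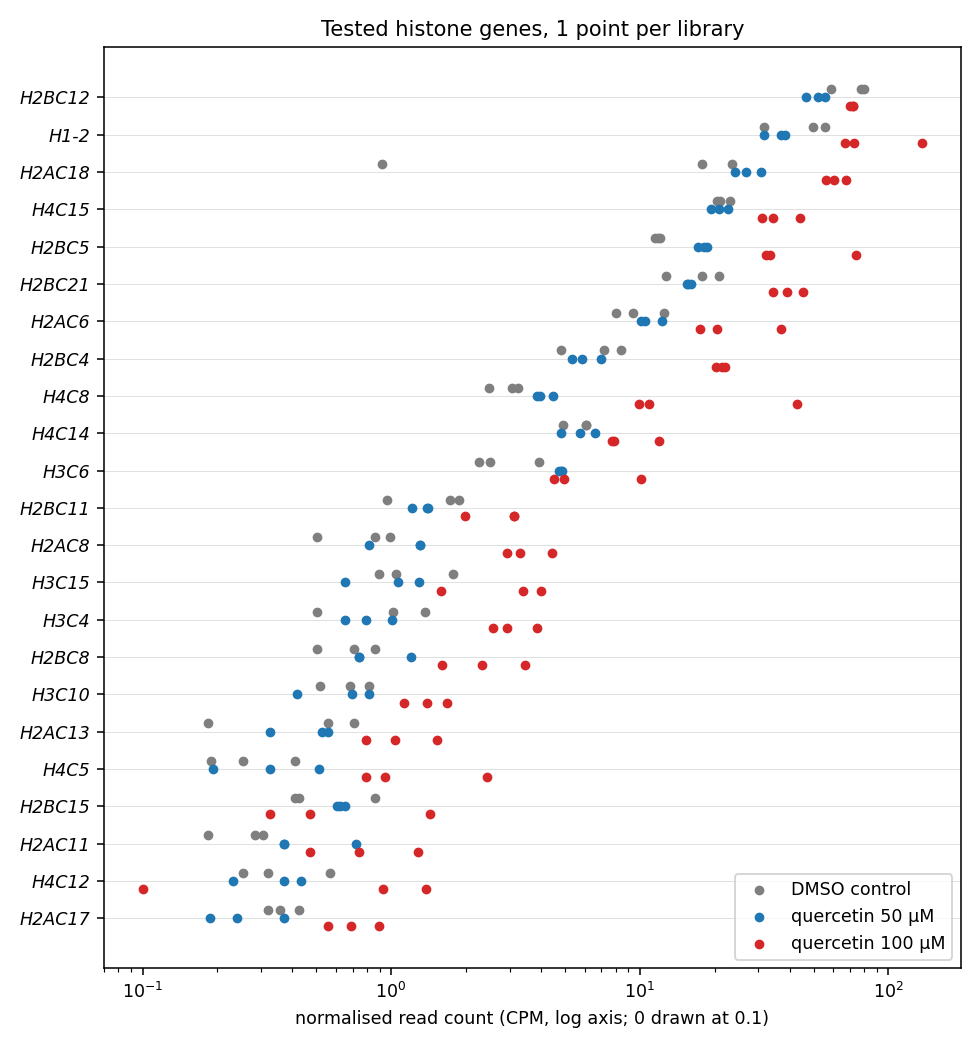
Normalised read count (CPM, log axis) of the 23 tested histone genes, 1 point per library, in control, 50 µM and 100 µM, ordered by mean level. The 100 µM points lie right of all control points for 19 genes, H2AC18 has 1 control library at 0.915 CPM, and H4C12 has 1 library at 100 µM with 0 counts, drawn at 0.1.

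The summed level of all 58 histone genes was higher at 100 µM and in no family lower. Its values were 190.8, 260.4 and 276.3 CPM in control, 221.0, 196.1 and 217.4 CPM at 50 µM and 387.1, 390.8 and 592.5 CPM at 100 µM. All 100 µM libraries lay above the other 6, and the 50 µM libraries fell inside the control range. The means were 456.8 ± 118 CPM at 100 µM and 242.5 ± 45.4 CPM in control (SD, n = 3 each), a fold of 1.88, 1.6 without 100 µM replicate 3 and 1.46 without both libraries that stand apart. Against 211.5 ± 13.5 CPM at 50 µM the fold was 2.16, and 50 µM over control gave 0.872. By family, 100 µM over control gave folds of 2.02 for H1, 1.94 for H2A, 1.67 for H2B, 2.4 for H3 and 2.25 for H4. Without 100 µM replicate 3 these were 1.53, 1.74, 1.52, 2.09 and 1.7. No p is given for these sums. A change in the share of cells that hold these RNAs and a change in RNA per cell cannot be told apart in such bulk samples.

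**Figure D2:**
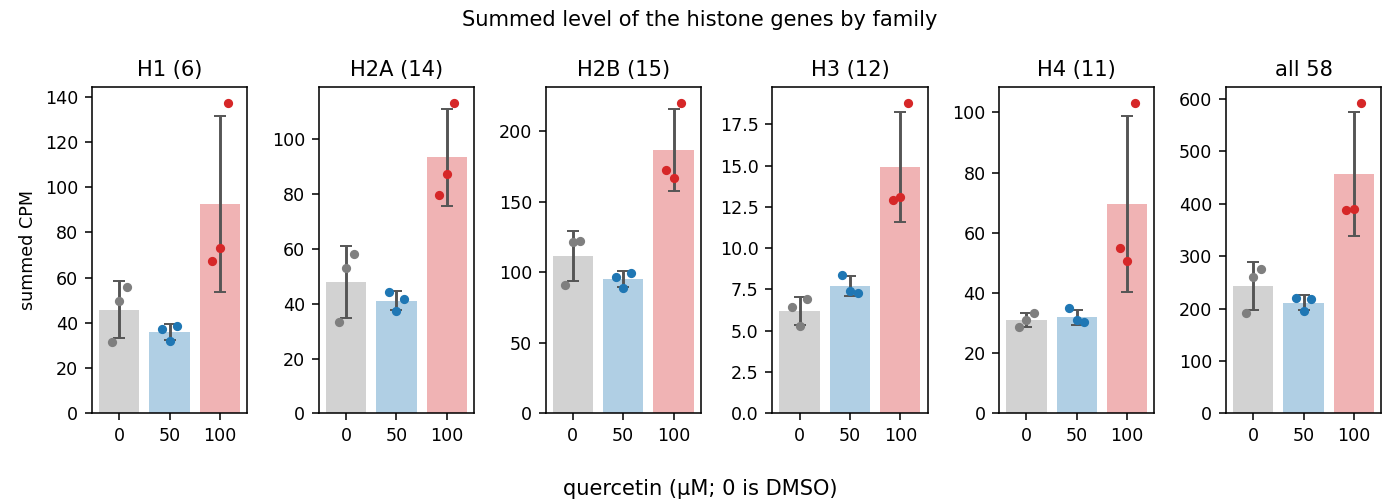
Summed CPM of the histone genes of each family and of all 58, against the quercetin dose in µM (0 is DMSO). Bars are means with SD over 3 libraries and points are libraries; vertical axes differ between panels and start at 0. In the panel of all 58 the 100 µM libraries lie between 387.1 and 592.5 CPM, above every other library.

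At 100 µM against control, 16 of the 23 tested histone genes rose and 0 fell. Over all genes tested, 10.7% rose and 10.3% fell. In 19 of the 23 every 100 µM library was above every control library, against 17.3% of all genes tested. Their median log2 fold change was 1.21, with a range of -0.01 to 2.86, beside a median of 0.001 over all genes. The filter favoured this direction for H2AC17, H2AC11 and H4C5. Among the 17 genes with at least 10 counts in every control library, 14 rose and the median was 1.27. In 15 of these 17 every 100 µM library was above every control library. At an unadjusted p under 0.05 also 0 of the 23 fell by edgeR, and 0 fell by DESeq2 or by limma on FPKM. DESeq2 called 15 higher, where 13.4% of all genes were. The count was 9 without control replicate 2, where 4.79% of all genes rose, and 10 without control replicate 3, where 4.6% did. It was also 10 without 50 µM replicate 2 or 50 µM replicate 3, where 7.69% and 7.75% of all genes rose.

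**Figure D3:**
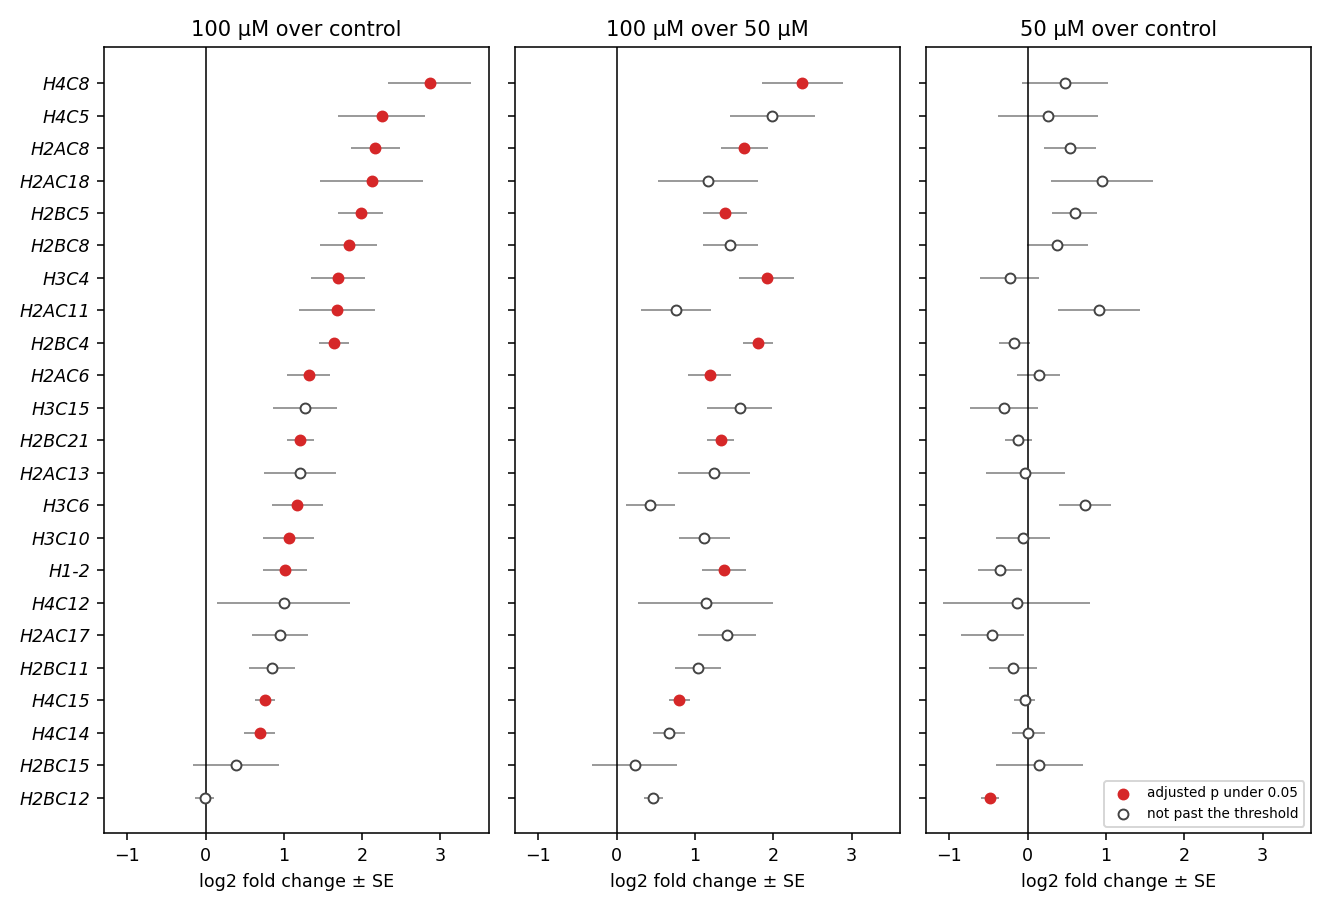
Log2 fold change ± SE of the 23 tested histone genes in each comparison, ordered by the change at 100 µM over control. Filled points passed an adjusted p of 0.05 (16 genes for 100 µM over control, 9 for 100 µM over 50 µM, 1 for 50 µM over control, which was lower); open points did not.

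Linker histone H1 binds DNA where it enters and leaves the nucleosome, and H1-2 (gene 3006, chromosome 6, 26055740 to 26056470) was the tested gene of that family. H1-2 had 31.5, 49.6 and 55.7 CPM in control, 37.0, 31.7 and 38.3 CPM at 50 µM and 67.0, 72.7 and 136.6 CPM at 100 µM. Every 100 µM library exceeded the other 6, and replicate 3 was far above the other two. H1-2 rose at 100 µM over control by a log2 fold change of 1.01 ± 0.282 (SE; edgeR adjusted p = 0.0322). That call was lost without any of the 3 control or 3 50 µM libraries, for example at an adjusted p of 0.0664 without control replicate 1. Without both libraries that stand apart H1-2 was called higher, with a log2 fold change of 0.42.

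H2A pairs with H2B in the nucleosome, and of the 6 tested H2A genes 4 rose, H2AC6, H2AC8, H2AC11 and H2AC18. H2AC6 (chromosome 6, 26124172 to 26124690) had 7.99, 9.42 and 12.5 CPM in control, 10.5, 10.1 and 12.3 CPM at 50 µM and 17.4, 20.5 and 36.9 CPM at 100 µM. H2AC8 (chromosome 6, 26216921 to 26217483) had 0.502, 0.989 and 0.864 CPM in control, 0.815, 1.3 and 1.3 CPM at 50 µM and 2.92, 3.3 and 4.45 CPM at 100 µM. In both genes the 100 µM libraries were the highest, without overlap. H2AC6 rose at 100 µM over control by a log2 value of 1.32 ± 0.274 (SE; edgeR adjusted p = 0.0102). H2AC8 rose by 2.17 ± 0.315 (edgeR adjusted p = 0.00233). H2AC11 was near the detection limit, with 0.183, 0.283 and 0.305 CPM in control, 0.719, 0.371 and 0.372 CPM at 50 µM and 0.471, 0.744 and 1.28 CPM at 100 µM, where 3 counts equal 0.137 to 0.153 CPM. Its 50 µM and 100 µM libraries overlapped, and both groups lay above control. H2AC11 rose at 100 µM over control by 1.68 ± 0.488 (edgeR adjusted p = 0.038), a call lost without any single control library, without 100 µM replicate 2 or 3, and without 50 µM replicate 2 or 3. Without both libraries that stand apart its log2 difference was 1.04 (edgeR adjusted p = 0.114). H2AC13 and H2AC17 were higher in every 100 µM library than in every control library but missed the threshold, with log2 fold changes of 1.21 and 0.95 at edgeR adjusted p of 0.0888 and 0.0854.

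H2AC18 and H2AC19 lie on chromosome 1 and cannot be counted apart, since every stretch of 100 bases of the H2AC18 transcript also occurs in H2AC19. H2AC18 (149842218 to 149842750) was assigned 513.1, 377.0 and 18.2 counts in control, 642.0, 522.4 and 575.0 at 50 µM and 1190.4, 1293.6 and 1366.7 at 100 µM. H2AC19 was assigned 0, 484.9 and 825.0 counts in control and at most 0.01 in any treated library. The control reads were thus split between the copies in 1 library, and in another almost all stood on H2AC19. In the authors' deposited table H2AC19 has the lowest log2 fold change of all genes with a value, -11.27 at 100 µM over control (q-value 0.0387) and -11.29 at 50 µM over control (q-value 0.0217). As assigned, H2AC18 rose at 100 µM over control by 2.12 ± 0.661 (SE; edgeR adjusted p = 0.048), and without control replicate 1 by 2.71. The call was lost without control replicate 2 and without any single 50 µM or 100 µM library, and without both libraries that stand apart (edgeR adjusted p = 0.065). Summed, the pair had 23.4, 40.6 and 42.9 CPM in control, 30.8, 24.2 and 26.8 CPM at 50 µM and 56.1, 60.2 and 67.5 CPM at 100 µM. The 100 µM libraries were highest and the 50 µM libraries lay within the control range. Counted as 1 gene, a setting chosen after seeing the data, the pair rose at 100 µM over control by 0.78 ± 0.201 (SE; edgeR adjusted p = 0.0241) and over 50 µM by 1.17 ± 0.204 (edgeR adjusted p = 0.0182). At 50 µM against control its log2 difference was -0.39 ± 0.203 (edgeR adjusted p = 0.219), where H2AC18 alone gave 0.95. The sign at 50 µM therefore depends on how the copies are counted.

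**Figure D4:**
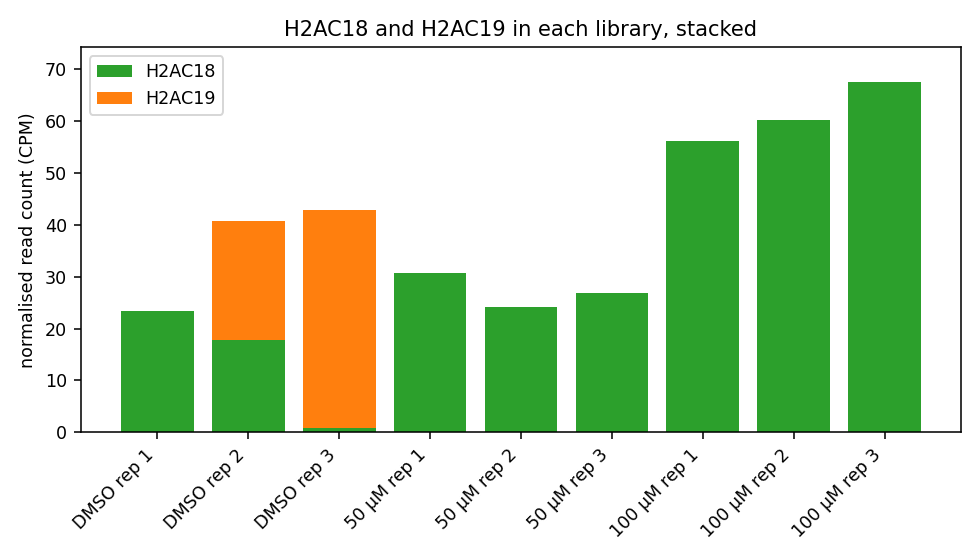
Normalised read count (CPM) assigned to H2AC18 and H2AC19 in each of the 9 libraries, stacked. H2AC19 holds 484.9 and 825.0 counts in control replicates 2 and 3 and at most 0.01 elsewhere, and the stacked height is 56.1 to 67.5 CPM at 100 µM, above every other library.

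H2B was the family with the highest summed level, and 4 of its 7 tested genes rose, H2BC4, H2BC5, H2BC8 and H2BC21. H2BC4 (gene 8347, chromosome 6, 26113170 to 26123926) had 4.84, 7.21 and 8.44 CPM in control, 5.32, 5.85 and 6.98 CPM at 50 µM and 22.1, 20.2 and 21.5 CPM at 100 µM. H2BC21 (gene 8349, chromosome 1, 149884459 to 149886682) had 12.7, 20.9 and 17.8 CPM in control, 16, 15.6 and 15.5 CPM at 50 µM and 39.0, 34.3 and 45.2 CPM at 100 µM. Both were near control level at 50 µM, and their 100 µM libraries lay above the rest, tightly grouped in H2BC4. H2BC4 rose at 100 µM over control by 1.64 ± 0.190 (SE; edgeR adjusted p = 0.000864), the smallest adjusted p of the tested histone genes, and H2BC21 by 1.21 ± 0.169 (edgeR adjusted p = 0.00208).

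H2BC5 (chromosome 6, 26158008 to 26172802) had 12.1, 11.8 and 11.5 CPM in control, 18.6, 17.1 and 18.1 CPM at 50 µM and 32.2, 33.5 and 74.2 CPM at 100 µM. The 3 groups did not overlap and were stacked by dose. H2BC5 rose at 100 µM over control by 1.98 ± 0.288 (SE; edgeR adjusted p = 0.00237), and at 50 µM over control its log2 difference was 0.60 (edgeR adjusted p = 0.179). In the authors' deposited table H2BC5 at 50 µM over control has a log2 fold change of 0.6 and a q-value of 7.06e-05. H2BC8 had 0.502, 0.707 and 0.864 CPM in control, 1.2, 0.743 and 0.745 CPM at 50 µM and 1.6, 2.32 and 3.46 CPM at 100 µM. Its 100 µM libraries were again the highest, and H2BC8 rose over control by 1.83 ± 0.364 (edgeR adjusted p = 0.00862). H2BC11 missed the threshold with a log2 difference of 0.85 (edgeR adjusted p = 0.0671), and without 100 µM replicate 3 it was called at 1.04 (adjusted p = 0.0142). H2BC15 had 0.743 ± 0.602 CPM at 100 µM and 0.566 ± 0.258 CPM in control (SD, n = 3 each), with overlapping groups.

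H2BC12 (chromosome 6, 27138293 to 27146858), the histone gene with the highest mean CPM, did not rise at either dose. It had 58.8, 77.4 and 79.9 CPM in control, 52.1, 46.8 and 55.5 CPM at 50 µM and 72.1, 72.1 and 70.2 CPM at 100 µM. The 100 µM libraries fell within the control range, and the 50 µM libraries lay below both other groups. At 100 µM over control its log2 difference was -0.01 ± 0.118 (SE; edgeR adjusted p = 0.954), the lowest of the 23. H2BC12 fell at 50 µM relative to control by 0.48 ± 0.118 log2 units (edgeR adjusted p = 0.0311), a call lost without any single 50 µM library and without control replicate 2 or 3. At 100 µM over 50 µM the difference was 0.47 (edgeR adjusted p = 0.0543), and without 100 µM replicate 3 it was called at 0.48 (adjusted p = 0.0153).

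H3 and H4 form the core of the nucleosome, and H3 carries many of the marks read by chromatin proteins. Of the 4 tested H3 genes 3 rose, H3C4, H3C6 and H3C10. H3C4 (chromosome 6, 26194270 to 26199293) had 0.502, 1.37 and 1.02 CPM in control, 1.01, 0.789 and 0.651 CPM at 50 µM and 2.92, 2.56 and 3.85 CPM at 100 µM. H3C6 had 3.93, 2.26 and 2.49 CPM in control, 4.84, 4.87 and 4.75 CPM at 50 µM and 4.95, 4.51 and 10.1 CPM at 100 µM. H3C4 was highest in the 100 µM libraries, with control and 50 µM overlapping, whereas in H3C6 both doses lay above control and overlapped each other. H3C4 rose at 100 µM over control by 1.69 ± 0.346 (SE; edgeR adjusted p = 0.00958). Its span holds all of the untested H2AC7 (26198784 to 26199293), which was assigned 7.78, 13.2 and 0 counts at 100 µM. Whether reads of H2AC7 were counted on H3C4 was not tested. H3C6 rose by 1.17 ± 0.327 (edgeR adjusted p = 0.0333), a call lost without control replicate 2 or 3 or without any single 50 µM library. H3C10, with 1.4 ± 0.275 CPM at 100 µM and 0.672 ± 0.148 CPM in control (SD, n = 3 each), rose by 1.06 (edgeR adjusted p = 0.0437), a call lost without any single library. H3C15, whose transcript is shared in full with HIST2H3C, had 3.39, 4.0 and 1.58 CPM at 100 µM and 1.05, 0.895 and 1.78 CPM in control, so the groups overlapped at 100 µM replicate 3. Its log2 difference of 1.27 missed the threshold (edgeR adjusted p = 0.0517), and without that library it was 1.59 (adjusted p = 0.00344).

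The H4 genes encode the same protein, and 4 of the 5 tested rose, H4C5, H4C8, H4C14 and H4C15. H4C8 (gene 8365, chromosome 6, 26285126 to 26301327) had 2.47, 3.06 and 3.25 CPM in control, 4.46, 3.85 and 3.96 CPM at 50 µM and 10.9, 9.9 and 42.9 CPM at 100 µM. The groups were stacked by dose without overlap, and 100 µM replicate 3 stood far above the rest. H4C8 rose at 100 µM over control by 2.86 ± 0.535 (SE; edgeR adjusted p = 0.00688), the highest log2 fold change of the 23, and by 1.84 without that library (adjusted p = 2.16e-05). H4C5, at 0.942, 0.79 and 2.42 CPM at 100 µM and 0.411, 0.188 and 0.254 CPM in control, rose by 2.25 ± 0.554 (edgeR adjusted p = 0.0205). It rose by 1.59 without 100 µM replicate 3, and its call was lost without control replicate 2 or 3.

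H4C15 (chromosome 1, 149853262 to 149861159) had 20.4, 21.1 and 23.1 CPM in control, 22.7, 20.9 and 19.4 CPM at 50 µM and 34.2, 31.1 and 44.1 CPM at 100 µM. H4C14 had 4.93, 6.08 and 6.05 CPM in control, 6.62, 4.83 and 5.77 CPM at 50 µM and 7.87, 7.72 and 11.9 CPM at 100 µM. Control and 50 µM overlapped in both genes and 100 µM lay above. H4C15 rose at 100 µM over control by 0.76 ± 0.133 (SE; edgeR adjusted p = 0.00503) and H4C14 by 0.69 ± 0.203 (edgeR adjusted p = 0.04). The call of H4C14 was lost without any single control or 50 µM library or without 100 µM replicate 3. H4C14 and H4C15 share 94.9% and 97.1% of their stretches of 100 bases with each other, so the split between them is uncertain. H4C12 shares all of its transcript with H4C11, and in 100 µM replicate 1 its count was 0 while H4C11 was assigned 13.9 counts. H4C12 did not pass the threshold, at a log2 difference of 1.00 (edgeR adjusted p = 0.424), and without that library it was called at 1.58 (adjusted p = 0.038).

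At 100 µM against 50 µM, 9 of the 23 tested genes rose and 0 fell, against 2.25% and 1.89% of all genes tested. The 9 were H1-2, H2AC6, H2AC8, H2BC4, H2BC5, H2BC21, H3C4, H4C8 and H4C15. In 19 genes every 100 µM library exceeded every 50 µM library, against 13.3% of all genes. All 23 log2 fold changes were positive, with a median of 1.24 beside 0.012 over all genes. Among the 17 genes with at least 10 counts in every control library, 9 rose. In 16 of these 17 every 100 µM library exceeded every 50 µM library. H2BC4 rose by 1.81 ± 0.191 in log2 (SE; edgeR adjusted p = 0.00242) and H2BC21 by 1.33 ± 0.170 (edgeR adjusted p = 0.00545). H3C4 rose by 1.92 ± 0.351 (edgeR adjusted p = 0.0203) and H4C8 by 2.37 ± 0.517 (edgeR adjusted p = 0.0387), and H4C8 by 1.34 without 100 µM replicate 3. H1-2 rose by 1.37 (edgeR adjusted p = 0.0329), H2AC8 by 1.63 (edgeR adjusted p = 0.0208), H2BC5 by 1.38 (edgeR adjusted p = 0.0302), H2AC6 by 1.19 (edgeR adjusted p = 0.0443) and H4C15 by 0.80 (edgeR adjusted p = 0.0153). At an unadjusted p under 0.05 also 0 fell, and 0 fell by DESeq2 or limma. This comparison depended on single libraries: 2 genes were called without 50 µM replicate 1 or replicate 2 and 1 without replicate 3, where 0.239% to 0.316% of all genes rose, and 5 without control replicate 2, where 1.17% did. Without 100 µM replicate 3 the count was 15, where 14.1% of all genes rose.

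At 50 µM against control, 0 of the 23 tested genes rose and 1 fell, H2BC12, against 5.28% and 6.31% of all genes tested. The median log2 fold change was -0.03, beside 0.003 over all genes, with 11 of 23 positive. In 5 genes every 50 µM library was above every control library and in 1 below, against 24.4% and 24.6% of all genes. At an unadjusted p under 0.05 also 0 rose, and 0 rose by DESeq2 or limma on all 9 libraries. The 5 were H2AC11, H2AC18, H2BC5, H3C6 and H4C8. H3C6 had 4.82 ± 0.0667 CPM at 50 µM and 2.89 ± 0.902 CPM in control (SD, n = 3 each), a log2 difference of 0.73 (edgeR adjusted p = 0.157). In the authors' deposited table that comparison of H3C6 has a q-value of 0.0331. Without 100 µM replicate 3, H2BC5, H3C6 and H4C8 were called higher at 50 µM, at adjusted p of 0.000609, 0.0152 and 0.0288. In that setting 18.4% of all genes were called higher, so 3 of the 25 histone genes then tested is no excess.

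Annotated transcripts that run past the stem-loops printed above were then set beside these calls. Of the tested genes, 12 have a transcript that goes on for at least 100 bases past the stem-loop, and 10 of these rose at 100 µM over control. Of the 4 in which every transcript with a stem-loop stops sooner 3 rose, one of them H2BC5, which also has a transcript without a stem-loop, and of the 7 in which no stem-loop was found 3 rose. The longest runs past the stem-loop were 1761 bases in H2AC11, 1729 in H2BC21 and 1655 in H4C8. H2BC4, with 116 bases, H2AC8, with 51, and H2BC5, with 39, rose too. The annotation shows which forms are known, not which were present here, since the table gives 1 value per gene.

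**Figure D5:**
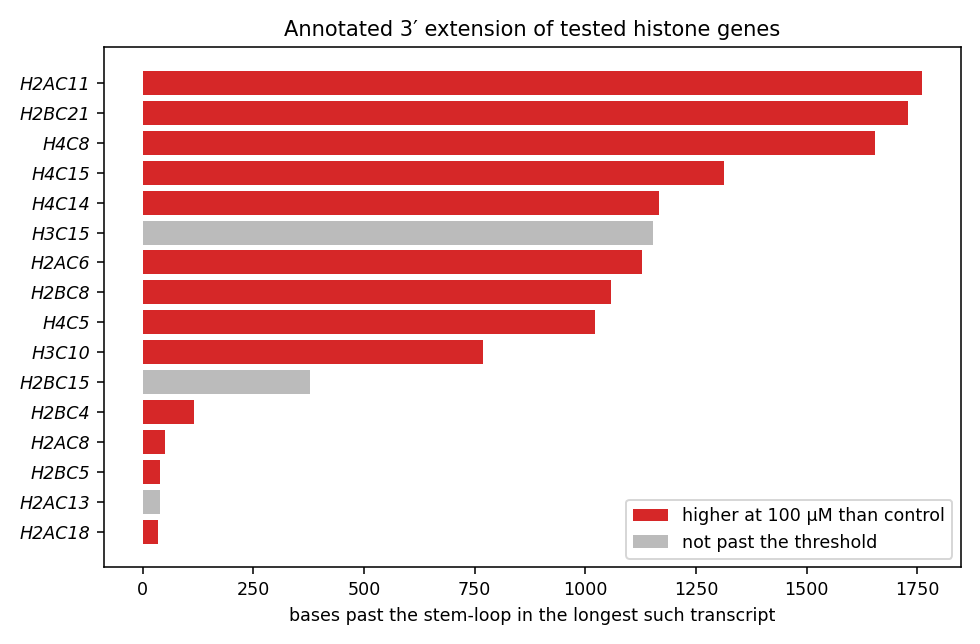
Number of annotated bases past the stem-loop in the longest transcript that holds one, for the 16 tested histone genes with a stem-loop, coloured by the call at 100 µM over control. Called genes occur at both ends, at 1761 bases in H2AC11 and at 35 in H2AC18.

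Promoters are shown for the 3 tested genes with the smallest adjusted p at 100 µM over control, H2BC4, H2BC21 and H2AC8, and for H2BC12, which did not rise at that dose and was picked for comparison after its values were seen. Each runs from 250 bases before to 50 after the start in the RefSeq table (GRCh38.p14), at chr6:26123877-26124176 (minus strand), chr1:149886633-149886932 (minus), chr6:26216671-26216970 (plus) and chr6:27146809-27147108 (minus). Capitals mark the octamer ATTTGCAT, CCAAT and TATAAA on either strand. In H2BC12 the TATAAA matches of both strands overlap.
H2BC4: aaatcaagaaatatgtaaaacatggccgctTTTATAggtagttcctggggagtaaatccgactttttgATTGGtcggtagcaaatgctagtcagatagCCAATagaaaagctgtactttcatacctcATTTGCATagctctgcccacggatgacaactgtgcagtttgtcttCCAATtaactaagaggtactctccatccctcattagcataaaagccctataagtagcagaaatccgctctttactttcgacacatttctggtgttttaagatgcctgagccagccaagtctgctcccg
H2BC21: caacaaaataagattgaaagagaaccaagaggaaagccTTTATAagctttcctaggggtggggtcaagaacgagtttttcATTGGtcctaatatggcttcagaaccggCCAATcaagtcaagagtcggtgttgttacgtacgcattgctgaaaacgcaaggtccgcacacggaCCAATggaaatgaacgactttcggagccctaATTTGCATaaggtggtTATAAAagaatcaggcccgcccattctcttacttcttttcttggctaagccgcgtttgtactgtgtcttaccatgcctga
H2AC8: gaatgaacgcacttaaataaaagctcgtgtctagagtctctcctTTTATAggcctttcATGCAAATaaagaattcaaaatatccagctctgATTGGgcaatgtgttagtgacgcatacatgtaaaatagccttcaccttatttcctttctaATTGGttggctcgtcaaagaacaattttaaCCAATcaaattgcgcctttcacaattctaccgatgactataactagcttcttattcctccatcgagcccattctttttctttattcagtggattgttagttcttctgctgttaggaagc
H2BC12: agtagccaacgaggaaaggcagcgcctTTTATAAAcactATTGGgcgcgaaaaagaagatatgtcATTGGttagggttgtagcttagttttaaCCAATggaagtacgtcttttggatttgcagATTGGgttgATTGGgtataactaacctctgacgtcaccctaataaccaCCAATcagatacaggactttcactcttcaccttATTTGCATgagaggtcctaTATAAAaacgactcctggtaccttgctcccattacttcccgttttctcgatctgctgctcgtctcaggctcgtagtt
All 4 windows hold 1 octamer, with 3 CCAAT in H2BC4, H2BC21 and H2AC8 and 6 in H2BC12. Their places differ between windows. Counted from the start, the octamer lay at -123 in H2BC4, -46 in H2BC21, -192 in H2AC8 and -46 in H2BC12. The part of these motifs in the changes was not tested. The octamer, the site of the factors OCT1 and OCT2, was present in 9 of 13 H2A windows (69.2%) and 13 of 17 H2B windows (76.5%), against 1.77% of all 35116 promoters. CCAAT was present in all H1, H2A, H2B and H3 windows and in 1 of 9 H4 windows, against 34.6% of all promoters. TATAAA was found in 66.7% of the 57 member windows, from 53 genes, against 11.5%. The motif AAACACA, known from H1 promoters, was present in 6 of 6 H1 windows, against 5.64%.

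H2A and H2B genes often lie head to head and share the stretch between their starts. Counting starts within 500 bases, 9 head-to-head pairs of histone genes were found, and in 3 both genes were tested. Among the 9 is H3C4 with H2BC7, and each of the others joins an H2A and an H2B gene. An annotated start of H3C4 is the same as that of H2AC7. The stretch of 223 bases to H2BC7 is therefore counted for both of them. H2BC4 and H2AC6 start 246 bases apart and had log2 fold changes of 1.64 and 1.32 at 100 µM over control. H2BC8 and H2AC8, 233 bases apart, had 1.83 and 2.17. H2BC11 and H2AC11, 248 bases apart, had 0.85, which missed the threshold, and 1.68. In the first pair both genes rose also over 50 µM, by 1.81 and 1.19.

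Genes that act on histones or go with their use were taken from 6 lists, and counts of calls in them stand beside the shares of all genes tested given above. At 100 µM over control those were 10.7% higher and 10.3% lower, at 100 µM over 50 µM 2.25% and 1.89%, and at 50 µM over control 5.28% and 6.31%. Among replication-independent histone variants, which are made outside S phase with ordinary poly(A) tails, 1 of 11 tested rose at 100 µM over control and 0 fell by edgeR, with a median log2 fold change of 0.22. That count is near the share of all genes, 10.7%. At an unadjusted p under 0.05 by edgeR 3 were higher and 2 lower, and the share of all genes past that p is not given. DESeq2 called 0 lower. The 1 was H3-3A, which encodes H3.3, at 526.8 ± 20.7 CPM at 100 µM and 365.3 ± 30.4 CPM in control (SD, n = 3 each; edgeR adjusted p = 0.00306). At 100 µM against 50 µM 1 variant fell, H2AZ1, at a log2 fold change of -0.40 (edgeR adjusted p = 0.046). That call was lost without any single 50 µM library, 100 µM replicate 1 or 2, or control replicate 2 or 3. At 50 µM over control 3 variants rose, H2AZ1, H3-3A and H3-3B, the last named after its values were seen, against 5.28% of all genes. There 1 was called without any single 50 µM library or without control replicate 2 or 3, and 7 without 100 µM replicate 3, where 18.4% of all genes rose.

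Of 19 tested genes of histone message processing and decay 5 fell at 100 µM relative to control and 1 rose, against 10.3% and 10.7% of all genes, with a median of -0.17. SLBP, the stem-loop binding protein, had 99.9 ± 8.82 CPM at 100 µM and 115.1 ± 6.65 CPM in control (SD, n = 3 each), with a log2 difference of -0.20 that missed the threshold (edgeR adjusted p = 0.116). NPAT, the coactivator of histone gene transcription, fell by 0.30 (edgeR adjusted p = 0.0329). ZNF473, a component of the histone cleavage machinery, fell by 0.49 (edgeR adjusted p = 0.00547) and CPSF2, of its cleavage core, by 0.55 (edgeR adjusted p = 0.00175). CSTF2 and NCBP1 fell too, at adjusted p of 0.041 and 0.0289. The 1 that rose was HINFP, a factor of H4 promoters, named after its values were seen (edgeR adjusted p = 0.0257). Of 16 genes of poly(A) site choice and tailing 2 fell, CSTF3 and FIP1L1, near the 10.3% of all genes, with a median of -0.14. Leaving out 1 library at a time gave 2 to 6 lower in the processing list and 0 to 4 in the poly(A) list, the highest without 100 µM replicate 3, where 14.6% of all genes fell. Against 50 µM 0 genes of either list were called by edgeR. At an unadjusted p under 0.05 by edgeR, 5 and 4 were then lower and 1 of each higher. The share of all genes past that p is not given, so no excess is read from these counts. DESeq2 called 2 of the processing list lower and 1 of the poly(A) list higher, where 5.18% and 5.49% of all genes were.

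Of 17 tested histone chaperones 4 fell at 100 µM relative to control, against 10.3% of all genes, with a median of -0.20, and 2 fell relative to 50 µM, against 1.89%. Relative to control 2 fell without control replicate 3, where 3.52% of all genes did, and 6 fell and 2 rose without 100 µM replicate 3, where 14.6% and 15.2% did. DESeq2 called 7 lower and 1 higher, where 12.9% and 13.4% of all genes were. Without both libraries that stand apart 8 fell and 3 rose, where 24.4% and 24.2% of all genes did. Relative to 50 µM 0 fell without 50 µM replicate 1 or 3. At an unadjusted p under 0.05 by edgeR, 8 chaperones were lower and 1 higher than in control. At that p 5 were lower than at 50 µM and no chaperone was higher. The share of all genes past that p is not given, so no excess is read from these counts. ASF1A, which hands H3 and H4 to other chaperones, fell by 0.59 (edgeR adjusted p = 0.00275), and relative to 50 µM by 0.58 (edgeR adjusted p = 0.012). NASP, SSRP1 and IPO4 fell relative to control at adjusted p of 0.0308, 0.0075 and 0.0123, and HAT1 relative to 50 µM (edgeR adjusted p = 0.0427).

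Of 23 S phase genes 3 fell at 100 µM relative to control, near the 10.3% of all genes, with a median of -0.35, where the median of the histone genes was 1.21. Relative to 50 µM 2 fell, MCM6 and PRIM1, against 1.89% of all genes. At an unadjusted p under 0.05 by edgeR, 16 of the 23 were lower than in control and 12 lower than at 50 µM. In neither comparison was a gene of the list higher at that p. The share of all genes past that p is not given. Relative to control the count of calls was 5, 6 and 8 without 100 µM replicate 1, 2 or 3, where 8.37%, 7.37% and 14.6% of all genes fell. By DESeq2 it was 7, where 12.9% of all genes fell. Without both libraries that stand apart it was 14, where 24.4% of all genes fell. Relative to 50 µM it was 1 without any single 50 µM library or 100 µM replicate 1 or 2. There 0.0924% to 0.385% of all genes fell. The count was 6 without 100 µM replicate 3, 7 by DESeq2 and 12 without both libraries that stand apart. In those settings 13.4%, 5.18% and 22.7% of all genes fell. MCM6, of the replicative helicase, had 77.8 ± 3.86 CPM at 100 µM and 115.2 ± 8.03 CPM in control (SD, n = 3 each) and fell by 0.57 (edgeR adjusted p = 0.00171). POLA1 fell by 0.50 and CCNE1 by 0.63, at adjusted p of 0.00422 and 0.0264. PCNA, the sliding clamp, had 170.4, 176.0 and 120.9 CPM at 100 µM and 201.0, 203.4 and 210.2 CPM in control, lower in every library, and missed the threshold at a log2 difference of -0.40 (edgeR adjusted p = 0.0513). The part of S phase cell numbers in the histone values was not tested.

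Of 12 cell cycle exit genes 4 rose at 100 µM over control and 1 fell, against 10.7% and 10.3% of all genes, with a median of 0.25. The number that rose was 2 without control replicate 2 or 3, where 4.79% and 4.6% of all genes rose. It was 6 without control replicate 1, where 13% did. At 100 µM over 50 µM 0 of the 12 were called in either direction by edgeR. DESeq2 called 3 of them higher and 0 lower there, where 5.49% and 5.18% of all genes were. At 50 µM over control 2 rose, CDKN2D and CDKN2C, the last also named after its values were seen, against 5.28% of all genes, and 0 without any single 50 µM library or without control replicate 2 or 3. Without 100 µM replicate 3 there were 5, where 18.4% of all genes rose. BTG1, an antiproliferative factor, rose by 0.71 (edgeR adjusted p = 0.00746) and the cyclin-dependent kinase inhibitors CDKN1B, CDKN1C and CDKN2D by 0.43, 1.54 and 0.55, at adjusted p of 0.0371, 0.0154 and 0.0265. CDKN1C had 4.38, 4.74 and 10.9 CPM at 100 µM and 1.83, 2.83 and 2.24 CPM in control, highest in 100 µM replicate 3 as in H1-2 and H4C8. CDKN1A, encoding p21, had 116.1 ± 3.21 CPM at 100 µM and 99.3 ± 19.1 CPM in control (SD, n = 3 each), with a log2 difference of 0.23 (edgeR adjusted p = 0.218). E2F4 fell by 0.29 (edgeR adjusted p = 0.0487).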

How the data were processed

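RNA-seq values of 9 HCCLM3 libraries were taken from 1 table. The submitters' processing notes name RSEM 1.2.12, Bowtie2 2.2.5 and HISAT2 2.0.4 and the build GRCh38.p13, with no roles. The authors deposited expected counts, without normalisation, and FPKM per library. The authors' deposited table also holds log2 fold changes and, named as DESeq2 results in the file headers, p-values with q-values. The labels' protocols describe tissue although the samples are cells, and end with a DSN treatment. Whether counting used strand is not stated.

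Expected counts were rounded and filtered with edgeR's filterByExpr (minimum count 10, minimum total 15), which kept 12832 genes and removed 4660 with 0.042% of the counts. A fit of all 9 libraries with a term per group (edgeR 4.0.16, R 4.3.3, TMM, robust quasi-likelihood F test, two-sided) was adjusted by Benjamini-Hochberg; the median SE of a log2 fold change was 0.134. SEs are those of log2 fold changes. The fit was also run on simulated counts. These held no libraries that stand apart, so they do not show how the calls fare with such libraries. Alternatives used DESeq2 1.42.0 and limma 3.58.1 on log2(FPKM + 0.1) or log2(FPKM + 1). Named were all tested histone genes, with full statistics for called and abundant ones, and up to 5 called genes per list. The members and lists were chosen with earlier results of these data known. Stem-loops came from GENCODE release 29 transcripts and promoters from RefSeq, matched by symbol or gene identifier for 58 and 53 of 58 genes. Protein sequences were not used here.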

Additional observations from a re-analysis of the deposited data

How the results depend on the processing

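Every alternative kept the sign of each called histone gene's change. Of the calls, 9 of 16 at 100 µM over control held under all alternatives in which the gene was tested (H2AC6, H2AC8, H2BC4, H2BC5, H2BC8, H2BC21, H3C4, H4C8 and H4C15), and over 50 µM 1 of 9 did (H2BC4). The fit of the compared groups alone called 9 genes higher at 100 µM over control, where 4.63% of all genes rose. At 50 µM over control it called 3 of 19 tested, 2 higher and 1 lower. There 15.8% of all genes rose and 18% fell, so these 3 are no excess. DESeq2 called 15 higher at 100 µM over 50 µM, where 5.49% of all genes rose. On log2(FPKM + 0.1) the median at 50 µM over control was 0.06. The replicate number as a block gave 11 calls at 100 µM over control, 5 at 100 µM over 50 µM and 0 at 50 µM over control. With that block 6.96%, 0.631% and 1.55% of all genes rose in the same order. Same-numbered libraries correlated at -0.52 to 0.35, so the numbers were not taken as pairs. Without both libraries that stand apart, 16 of 25 tested histone genes were called at 100 µM over control, where 24.2% of all genes rose. In that setting 18 were called at 100 µM over 50 µM, where 24.6% of all genes rose, with a median of 0.98. At 50 µM over control 7 were called, 3 higher and 4 lower, below the 28.5% and 28.9% of all genes, with a summed fold of 0.788.

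Leaving out each library in turn gave 9 to 15 calls at 100 µM over control, 1 to 15 at 100 µM over 50 µM, with a median of 0.97 to 1.33, and 0 to 4 at 50 µM over control. For the last comparison the median ran between -0.09 and 0.08 and the summed fold between 0.791 and 0.941. Without control replicate 1, H2AC19 entered the test and was called lower at 100 µM. The causes were not tested. Genes near 1 CPM rest on few counts, and 34 histone genes were too low to test at this depth.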
